A study of Homo sapiens with 24 samples.

Results

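The 8 genes described here encode plasma membrane carriers that bring neutral and cationic amino acids into cells: SLC7A5, SLC43A1, SLC7A1, SLC1A4, SLC1A5, SLC38A1, SLC38A2 and SLC6A9. They were chosen by gene symbol, with earlier results of these data known. Each symbol matched 1 identifier, so that 8 of the 58051 genes of the count tables were followed. The data are RNA-seq counts of 24 libraries. They come from 4 established human cancer lines: SW620, a colon adenocarcinoma line (COAD); BxPC-3, a pancreatic adenocarcinoma line (PAAD); LNCaP, a prostate adenocarcinoma line (PRAD); and HCC-70, a triple-negative breast cancer line (TNBC). Every cell line had 3 control libraries and 3 libraries of cells treated for 48 h with Ocoxin, a nutritional mixture that combines amino acids with extracts of green tea, licorice and cinnamon. The PRAD cells received the least diluted mixture (50-fold), the PAAD cells a 500-fold dilution, and the COAD and TNBC cells the same 700-fold dilution. The study chose these as the approximate IC50 of each line, the dose that lowers viability by 50%. RNA was taken from the adhered cells. All groups were kept in RPMI-1640 medium with 1% serum, and fresh Ocoxin was added to the treated cells halfway. Each tumor type was thus represented by 1 cell line, the medium already contained amino acids in the control groups, and the mixture itself added more. The sources do not say whether libraries with different numbers came from separate cultures, and the p-values therefore measure the spread between these libraries.

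Amino acid carriers work as exchangers, as sodium-driven pumps or as passive facilitators, and a cell needs several of them at once. Sodium-driven carriers of the SLC38 family fill the cell with small neutral amino acids such as alanine, serine and glutamine. Exchangers such as SLC7A5 spend these to bring in large essential amino acids such as leucine. Leucine and arginine inside the cell are sensed by the mTORC1 kinase complex, which controls protein synthesis and growth. When amino acids are scarce, or when another stress leads to phosphorylation of the initiation factor eIF2α, the transcription factor ATF4 raises the transcription of many of these carriers, and MYC does so in growing tumor cells. Fast-growing tumors are known for high levels of SLC7A5 and SLC1A5.

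The median depth was 30467744 counts for COAD libraries and 32920387 for PAAD libraries, 9259864 for PRAD libraries and 37872460 for TNBC libraries. For PRAD the counting was done apart and did not use the option for read pairs, and the gene with the most counts per exonic base reached 0.782 to 0.995 in a PRAD library, against 34.1 to 49 in the others. Levels in PRAD are therefore given beside the others and not compared with them. The lines carried genes of their labelled tissue. KLK3 (403 CPM, the usual depth-scaled count, here with TMM factors) stood high in PRAD controls, KRT7 (1050 CPM) and CEACAM6 (1310 CPM) in PAAD, and KRT5 (1600 CPM) and EGFR (500 CPM) in TNBC, where PGR had 0 counts in every library and ESR1 stood at 6.85 CPM. The other receptor gene looked at, ERBB2, stood at 248 CPM in TNBC controls, against 124 CPM in COAD and 124 CPM in PAAD. The receptor genes were thus not all low in TNBC. KRT5 (3130 CPM) and EGFR (596 CPM) were also high in PAAD, and KRT7 (672 CPM) and CEACAM6 (379 CPM) in TNBC, so these markers do not set PAAD and TNBC apart from each other. In COAD, VIL1 stood at 526 CPM and CDX2 at 16.7 CPM, while 3 of the 6 intestinal markers were near 0, with at most 3 counts in a library for CDX1 and at most 24 for GPA33 and for LGALS4. Of 10 markers of blood, vessel and connective tissue cells, PTPRC, CD68, COL1A2 and DCN had at most 16 counts in any library, while 4 stood at 1 CPM or more in the controls of COAD and of PRAD, 5 in those of PAAD and 2 in those of TNBC. Their summed level was 30.2 CPM in controls and 30.5 CPM with Ocoxin in COAD, 29.5 and 34.4 in PAAD, while PRAD had 147 and 121 and TNBC 17.3 and 15.8. VWF rose in PAAD (0.89, adjusted p = 0.00169, edgeR) and fell by 0.73 in PRAD (0.0257), where it stood at 78.2 CPM in controls, and COL3A1 fell by 1.68 in PAAD (0.000186). CD3E reached 95 counts in a PAAD library. The part of these genes in the results below was not tested. In bulk libraries, a change in a few cells and a smaller change in all cells cannot be told apart, and neither can fewer cells of a type and less RNA per cell.

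SLC7A5 lies on chromosome 16 (87830023 to 87869488, hg38, minus strand), SLC43A1 on chromosome 11 (57484534 to 57515786, minus), SLC7A1 on chromosome 13 (29509410 to 29595688, minus) and SLC6A9 on chromosome 1 (43991500 to 44031467, minus). SLC1A4 lies on chromosome 2 (64988477 to 65023865, plus) and SLC1A5 on chromosome 19 (46774883 to 46788594, minus). SLC38A1 (46183063 to 46270017, minus) and SLC38A2 (46358189 to 46372867, minus) are neighbours on chromosome 12. The counts cover all exons, from 3332 exonic bases in SLC1A5 to 10015 in SLC38A1. Exons of other genes on the opposite strand overlap 23.8% of the exonic bases of SLC1A5, 7.83% of those of SLC6A9 (CCDC24) and 5.71% of those of SLC7A5. Strand was ignored in counting and reads that met exons of more than 1 gene were left unassigned, so these stretches add little to the counts, and reads of unannotated antisense transcripts cannot be told apart. The processed copy SLC7A5P1 held between 2 and 46 counts in a library, at most 1.33% of the SLC7A5 counts of a cell line, and SLC7A5P2 held 0 in all.

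The promoters of the carriers were searched for the binding motif of C/EBP and ATF factors (TGATGNAAT) and for the E-box bound by MYC and related factors (CACGTG) on both strands of the 250 bases before each start, in the 13 starts that RefSeq gives for the 8 genes (GRCh38.p14). TGATGNAAT was found before none of them, and 0.888% of the 35116 promoters of all genes hold it. CACGTG was found before 1 start each of SLC7A5, SLC43A1 and SLC1A5, against 6.34% of all promoters. The promoters of SLC7A5, SLC6A9 and SLC1A4 are shown because these carriers rose in the same 3 cell lines, from 250 to 11 bases before the start, with the E-box in capitals.
SLC7A5, chr16:87869518-87869757, minus strand: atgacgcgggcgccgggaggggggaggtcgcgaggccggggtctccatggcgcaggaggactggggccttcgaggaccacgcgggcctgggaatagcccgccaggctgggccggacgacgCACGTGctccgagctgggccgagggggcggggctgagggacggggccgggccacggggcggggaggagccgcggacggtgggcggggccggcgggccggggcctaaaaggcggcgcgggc
SLC6A9, chr1:44031473-44031712, minus strand: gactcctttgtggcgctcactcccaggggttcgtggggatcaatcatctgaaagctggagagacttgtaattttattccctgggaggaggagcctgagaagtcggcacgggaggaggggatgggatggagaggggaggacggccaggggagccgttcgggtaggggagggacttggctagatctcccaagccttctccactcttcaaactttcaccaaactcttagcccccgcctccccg
SLC1A4, first start, chr2:64988229-64988468, plus strand: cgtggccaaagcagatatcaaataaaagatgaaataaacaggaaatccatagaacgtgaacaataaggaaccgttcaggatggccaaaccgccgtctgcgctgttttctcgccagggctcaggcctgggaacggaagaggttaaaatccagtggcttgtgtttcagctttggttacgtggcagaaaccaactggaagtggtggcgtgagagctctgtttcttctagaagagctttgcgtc
SLC43A1, around its E-box, chr11:57515797-57515826, minus strand: cagcgggcgagtCACGTGcgcgtgaaactc
The E-box lay 130 bases before the start of SLC7A5, 112 before that of SLC43A1 and 50 before an inner start of SLC1A5. A match of letters says nothing of whether a factor was bound there, and where no match was found only these letters were missing from these windows.

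Levels of different carriers were compared per kilobase of exon (CPM per kb, mean ± SD of 3 control libraries). All exonic bases were used as the length, also those shared with other genes, where reads were left unassigned. The values of SLC1A5 (23.8% shared), SLC6A9 (7.83%) and SLC7A5 (5.71%) therefore tend to be too low. Their places against carriers of a similar level are uncertain in all lines. In COAD, SLC1A5, the main glutamine carrier of many tumors, stood highest at 243 ± 6.3 CPM per kb, followed by SLC7A5 at 164 ± 3.2, SLC38A2 at 101 ± 5.41 and SLC38A1 at 71.7 ± 2.64. SLC7A1, the arginine and lysine carrier, stood at 14.8 ± 0.867 and SLC43A1 at 12.7 ± 0.174, while SLC1A4 (2.34 ± 0.174) and SLC6A9 (1.98 ± 0.158) were lowest. In TNBC, SLC7A5 led with 189 ± 11.5 CPM per kb, SLC1A5 followed at 147 ± 3.26, and SLC38A2 (65.1 ± 1.77) and SLC6A9 (60.7 ± 2.44) came next. SLC7A1 stood at 42.1 ± 0.882 there, SLC38A1 at 35.7 ± 1.82, SLC1A4 at 9.08 ± 0.314 and SLC43A1 at 1.95 ± 0.246. SLC6A9, the glycine carrier, thus ranked last among the 8 in COAD and above 4 of the other carriers in TNBC.

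In PAAD, SLC38A2 (131 ± 4.63 CPM per kb) and SLC1A5 (120 ± 8.51) stood highest, and SLC7A5 (65 ± 3.76), SLC38A1 (50.3 ± 4.35), SLC7A1 (25.6 ± 1.66) and SLC6A9 (5.99 ± 0.454) followed. SLC1A4 (0.538 ± 0.0381) and SLC43A1 (0.473 ± 0.0843) were lowest, and their libraries overlapped, so that the last 2 places could not be told apart. In PRAD, SLC7A1 (43.1 ± 2.08) and SLC38A2 (41.1 ± 1.77) overlapped in first place, and SLC1A5 (35.5 ± 2.43), SLC38A1 (35.2 ± 1.23) and SLC43A1 (33.3 ± 2.93), a facilitator first described in prostate cancer, overlapped behind them. Their highest values in a library were 0.338 (SLC43A1) to 0.437 (SLC7A1) counts per exonic base, where no PRAD gene passed 0.995. Whether this draws their levels together was not tested. The place of SLC1A5 in PAAD and PRAD also depends on its shared exonic bases. SLC6A9 (10.2 ± 1.24) and SLC1A4 (8.39 ± 0.0482) stood below, and SLC7A5 (6.96 ± 1.55) overlapped SLC1A4 at the bottom of the order. SLC7A5 was therefore among the 2 highest carriers of COAD and TNBC and among the 2 lowest of PRAD by rank within each line.

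**Figure D1:**
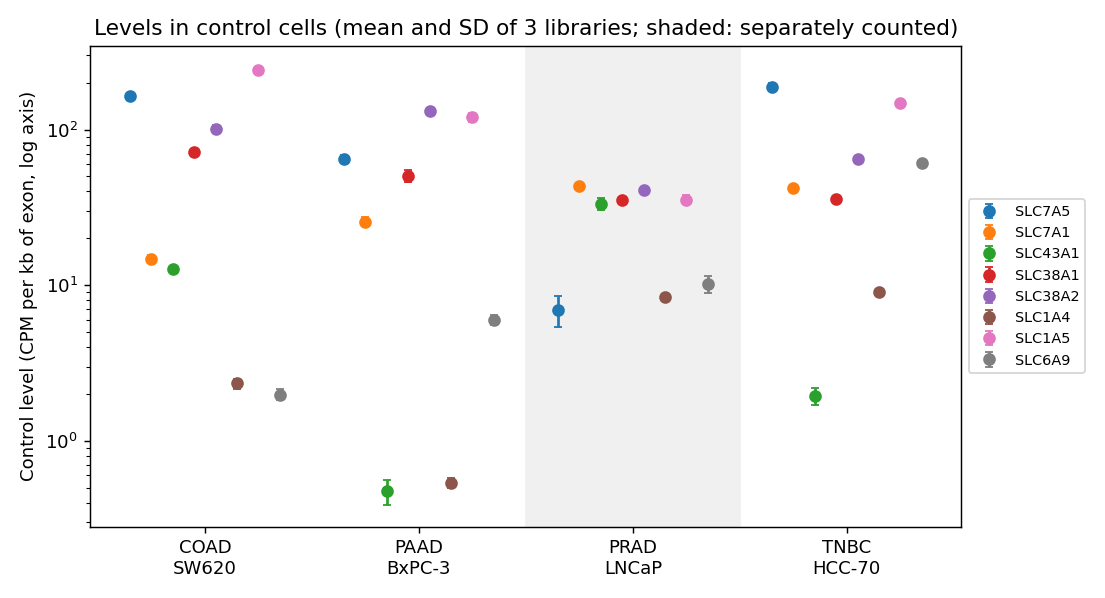
Control level of the 8 carriers in CPM per kb of exon on a log axis, as mean and SD of 3 control libraries in each cell line, with the separately counted PRAD libraries shaded. SLC7A5 and SLC1A5 top the order in COAD and TNBC, and the lowest points are SLC43A1 (0.473) and SLC1A4 (0.538) in PAAD.

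Between the control groups of COAD, PAAD and TNBC, which were counted in 1 run, each of the 8 carriers differed in all 3 pairs of lines (edgeR's quasi-likelihood test with Benjamini-Hochberg adjustment over all genes, adjusted p under 0.05). So did 78.6% of all tested genes between COAD and PAAD, 82.8% between COAD and TNBC and 77.1% between PAAD and TNBC, and a count of 8 of 8 is thus near the background. The sizes varied widely. SLC6A9 was 34.1-fold higher in TNBC than in COAD and 9.61-fold higher than in PAAD, and SLC43A1 was 22.9-fold higher in COAD than in PAAD and 5.86-fold higher than in TNBC. SLC1A4 was 16-fold higher in TNBC than in PAAD and 4.32-fold higher than in COAD. SLC7A1 was 3.17-fold higher in TNBC than in COAD. SLC7A5 was 2.75-fold higher in TNBC than in PAAD and 1.28-fold higher than in COAD. Differences were smaller for SLC38A1, which was 1.8-fold higher in COAD than in TNBC, for SLC38A2, which was 2.12-fold higher in PAAD than in TNBC, and for SLC1A5, which was 1.72-fold higher in COAD than in PAAD and 1.16-fold higher in TNBC than in PAAD. When the dependence on gene length was taken out per library, the median of all genes shifted from 0.0437 to 0.223 (log2) between COAD and PAAD, and the 8 calls stayed.

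Whether Ocoxin altered the carriers was asked in each cell line apart. The treatment was followed by higher carrier expression in PAAD, PRAD and TNBC, and SLC7A5, SLC1A4 and SLC6A9 rose in all 3. In COAD no carrier rose and SLC7A1 fell. By count, 1 of 8 carriers was called in COAD (0 higher) and 5 in PAAD, while PRAD had 3 and TNBC 5, all of them higher outside COAD. Among all genes, COAD had 2.55% called (1.47% higher) and PAAD 8.33% (4.72% higher), while PRAD had 2.98% (2.4% higher) and TNBC 21% (9.65% higher). Since the 8 carriers were chosen with earlier results known, a count above these shares is no test of the set. These shares depend on single libraries: with 1 left out, the genes called went from 451 to between 121 (without Ocoxin 2) and 782 (without control 3) in COAD, from 1440 to between 641 (without Ocoxin 2) and 1715 (without control 3) in PAAD, from 508 to between 3 (without Ocoxin 2) and 398 (without Ocoxin 3) in PRAD, and from 3644 to between 2285 (without Ocoxin 1) and 3864 (without Ocoxin 3) in TNBC. Of all calls in PRAD, 80.5% were higher, against 27.5% with the length trend removed, where the same number of carriers (3) rose. The 8 carriers had a median log2 fold change of -0.02 (COAD), 0.52 (PAAD), 0.11 (PRAD, or 0.02 with the length trend removed) and 0.24 (TNBC), against medians between -0.01 and 0.01 over all genes. Fold changes below are Ocoxin over control on the log2 scale with their standard error, tested with edgeR's quasi-likelihood test and Benjamini-Hochberg adjustment over all genes of the line, and levels are in CPM, listed for replicates 1 to 3.

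**Figure D2:**
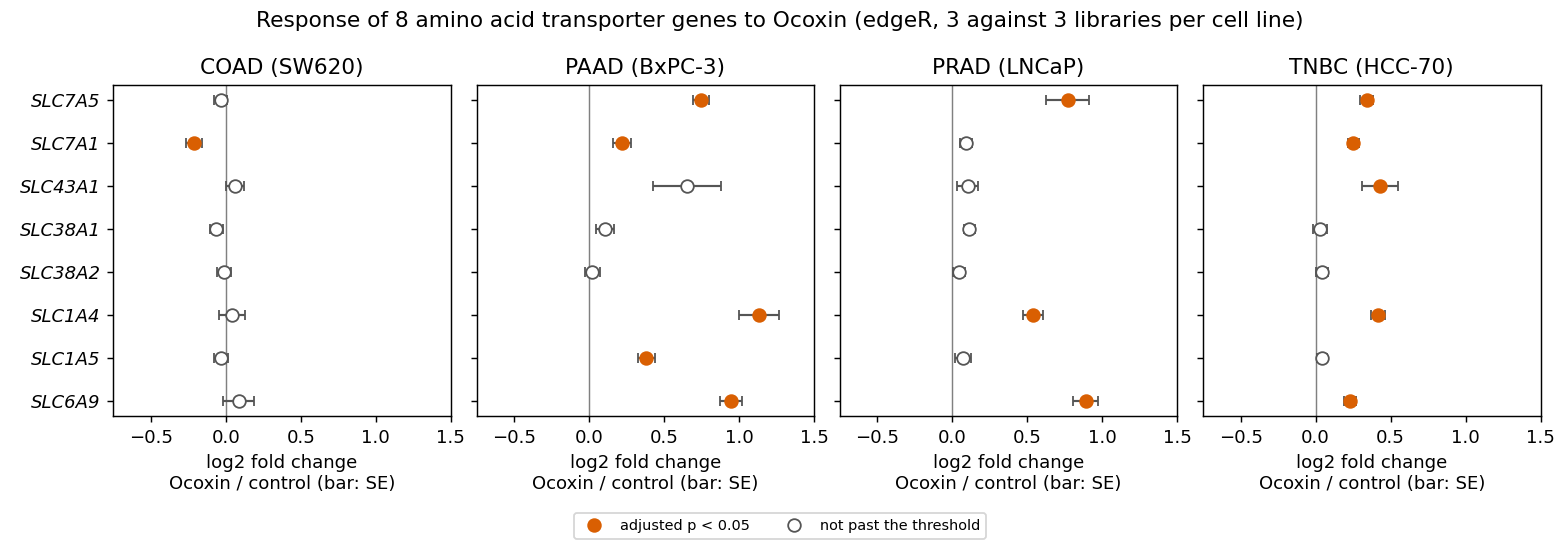
Log2 fold change of Ocoxin over control for the 8 carriers in each cell line, with bars for the standard error and filled points for an adjusted p under 0.05 (edgeR, 3 against 3 libraries). The filled points lie to the right of 0 in PAAD, PRAD and TNBC, from 0.22 to 1.13, and the filled point of COAD is SLC7A1 at -0.21.

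SLC7A5 (LAT1, identifier ENSG00000103257) carries leucine and other large neutral amino acids in a complex with the heavy chain SLC3A2. In PAAD it read 312, 324 and 289 CPM in the controls and 515, 517 and 518 CPM with Ocoxin. The treated libraries all lay above the controls and hardly differed among themselves. The fold change was 0.74 ± 0.0547 (adjusted p = 6.04e-07, edgeR). In TNBC the controls read 922, 931 and 832 CPM and the treated libraries 1150, 1100 and 1150 CPM, again without overlap, with a fold change of 0.34 ± 0.0429 (adjusted p = 0.000237). In PRAD the gene read 25.8, 40.5 and 32.7 CPM in the controls and 55, 60.3 and 53.6 CPM with Ocoxin. The groups were apart but the controls were spread, and the change of 0.77 ± 0.143 passed the threshold (adjusted p = 0.0378) only while all 6 libraries were used: without any 1 of them the adjusted p lay between 0.0523 (without control 1) and 0.153 (without Ocoxin 2). In COAD, values of 760, 787 and 786 CPM in the controls and 755, 785 and 739 CPM with Ocoxin overlapped (-0.03 ± 0.0439, adjusted p = 0.778).

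SLC43A1 (LAT3, ENSG00000149150), a facilitator of leucine, isoleucine, valine, phenylalanine and methionine, was a minor transcript outside PRAD and COAD. In TNBC it read 7.84, 6.67 and 6.14 CPM in the controls and 8.15, 9.95 and 9.7 CPM with Ocoxin. The groups did not overlap, by a narrow margin between control 1 and Ocoxin 1. It rose by 0.43 ± 0.12 (adjusted p = 0.0236), which did not pass without control 2 (0.0916), control 3 (0.0805) or Ocoxin 2 (0.097). In PAAD only 48 to 114 counts were found per library, at 2, 1.59 and 1.42 CPM in the controls and 2.62, 1.94 and 3.29 CPM with Ocoxin, and these overlapped (0.65 ± 0.225, adjusted p = 0.0892, or 0.0245 with the replicate number as a block). In PRAD it read 106, 123 and 124 CPM and then 119, 128 and 131 CPM (0.10 ± 0.0702, adjusted p = 0.46). In COAD it read 45.5, 44.3 and 45.3 CPM and then 46.8, 46.5 and 47.6 CPM, which did not overlap but differed by only 0.06 ± 0.06 (adjusted p = 0.691).

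SLC7A1 (CAT1, ENSG00000139514), the carrier of arginine, lysine and ornithine, was the carrier with called changes in both directions. In TNBC it read 331, 320 and 319 CPM in the controls and 396, 369 and 389 CPM with Ocoxin, and rose by 0.25 ± 0.0371 (adjusted p = 0.000589). In PAAD it rose from 182, 204 and 205 CPM to 224, 236 and 228 CPM, by 0.22 ± 0.0584 (adjusted p = 0.0286). The groups did not overlap in either line. The PAAD call did not pass without control 1 (0.0935), control 2 (0.064), Ocoxin 1 (0.0744) or Ocoxin 2 (0.152). In COAD, by contrast, controls of 116, 119 and 106 CPM lay above treated libraries of 98.9, 101 and 94.9 CPM, and the gene fell by 0.21 ± 0.0545 on the log2 scale (adjusted p = 0.0413). This fall was close to the threshold and did not pass without control 1 (0.213), control 2 (0.265), Ocoxin 1 (0.057), Ocoxin 2 (0.144) or Ocoxin 3 (0.139), while without control 3 it did (0.00839). With all libraries it passed with DESeq2 (0.0262) and with length and GC trends removed (0.0152). With at least 10 counts in every library or with counts halved it did not. In PRAD the values of 326, 349 and 318 CPM and of 348, 361 and 349 CPM overlapped (0.09 ± 0.0414, adjusted p = 0.268).

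**Figure D3:**
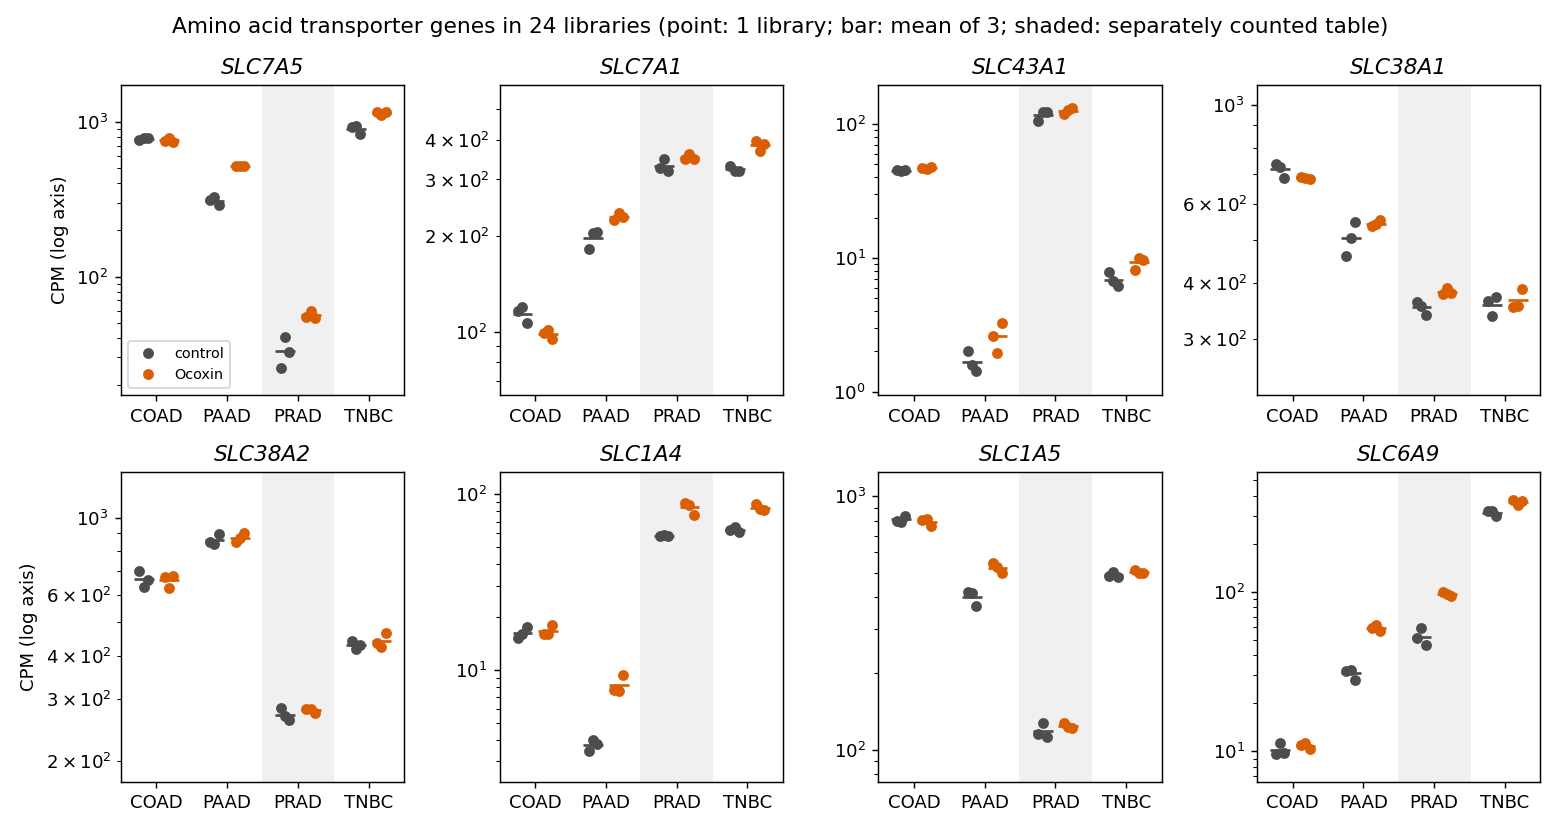
Level of each carrier in all 24 libraries, in CPM on a log axis, with control libraries in grey, Ocoxin libraries in orange and bars at the mean of 3 (PRAD shaded because it was counted separately). Orange points lie above grey points for SLC7A5, SLC1A4 and SLC6A9 in PAAD, PRAD and TNBC, and overlap them for SLC38A2 in all 4 lines.

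SLC1A4 (ASCT1, ENSG00000115902), a sodium-coupled exchanger of serine, alanine and cysteine, showed the largest fold change of the 8 in PAAD. It read 3.45, 3.97 and 3.79 CPM in the PAAD controls and 7.62, 7.58 and 9.36 CPM with Ocoxin. Every treated library thus lay well above every control, although the gene stayed at a low level (112 to 324 counts per library), and it rose by 1.13 ± 0.133 (adjusted p = 6.72e-05). In TNBC it went from 62.5, 65.4 and 61.1 CPM to 88.3, 82.7 and 81.1 CPM (0.42 ± 0.0492, adjusted p = 0.000136). In PRAD the controls of 58, 58.6 and 58 CPM were nearly equal, the treated libraries read 89.9, 86.8 and 76.6 CPM, and the gene rose by 0.54 ± 0.0662 (adjusted p = 0.0165). That call did not pass without control 2 (0.0794), control 3 (0.0543) or Ocoxin 2 (0.0893). In COAD the gene read 15.2, 16 and 17.6 CPM and then 16, 16.1 and 18 CPM (0.04 ± 0.0878, adjusted p = 0.878).

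SLC1A5 (ASCT2, ENSG00000105281), its paralog that takes up glutamine, rose in PAAD, from 418, 416 and 368 CPM to 544, 524 and 500 CPM. The groups were apart, and the fold change was 0.38 ± 0.0599 (adjusted p = 0.000891). In TNBC the treated values of 513, 500 and 496 CPM overlapped the controls at 483, 501 and 481 CPM (0.04 ± 0.0333, adjusted p = 0.403). In PRAD the controls at 115, 127 and 112 CPM and the treated libraries at 127, 123 and 122 CPM overlapped as well (0.07 ± 0.0537, adjusted p = 0.52), and so did those of COAD, at 801, 795 and 834 CPM and at 803, 810 and 762 CPM (-0.03 ± 0.0445, adjusted p = 0.788).

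SLC6A9 (GlyT1, ENSG00000196517), which brings in glycine with sodium and chloride, rose in PAAD from 32.1, 32.4 and 28.2 CPM to 59.7, 61.8 and 57.2 CPM. This was a change of 0.95 ± 0.0721 (adjusted p = 9.29e-07), or 1.93-fold. In PRAD it rose 1.85-fold, from 51.4, 59.2 and 46.6 CPM to 100, 96.8 and 93.8 CPM (0.89 ± 0.0836, adjusted p = 0.0113), a call that was lost without Ocoxin 2 (0.069) and held without any other library. In TNBC, where the gene was already high, 321, 320 and 298 CPM became 378, 353 and 371 CPM, a change of 0.23 ± 0.0403 (adjusted p = 0.00172). The groups were apart in all 3 lines. In COAD it stood at 9.68, 11.2 and 9.82 CPM and then at 11, 11.2 and 10.4 CPM (0.09 ± 0.103, adjusted p = 0.743).

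SLC38A1 (SNAT1, ENSG00000111371) and SLC38A2 (SNAT2, ENSG00000134294), the sodium-driven glutamine and alanine carriers, were called in none of the 4 lines. SLC38A2, known for its induction when amino acids are scarce, read 852, 839 and 897 CPM in PAAD controls and 853, 871 and 903 CPM with Ocoxin. The fold changes of SLC38A2 lay between -0.01 (COAD) and 0.04 (PRAD and TNBC), with standard errors of at most 0.0511 and adjusted p-values from 0.515 to 0.946. SLC38A1 read 460, 505 and 547 CPM in PAAD controls and 535, 541 and 553 CPM with Ocoxin, which overlapped (0.11 ± 0.0608, adjusted p = 0.315, or 0.0213 with the replicate number as a block). In PRAD the treated libraries of SLC38A1 at 378, 389 and 379 CPM lay above the controls at 363, 356 and 339 CPM, and the change of 0.11 ± 0.0356 did not pass (adjusted p = 0.13). Its fold changes in COAD (-0.06 ± 0.0442) and TNBC (0.03 ± 0.047) were smaller.

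Because a call in 1 line and none in another does not show a difference, the responses were compared directly in a fit of all 24 libraries, with Benjamini-Hochberg adjustment over all genes within each of the 6 pairs of lines. The dilutions differed between the lines, except for COAD and TNBC, so that a difference between lines and a difference in dilution cannot be told apart in the other 5 pairs. In the pairs with PRAD, the separate way of counting cannot be told apart from these either. No PRAD gene passed 0.995 counts per exonic base, and what this does to the differences was not tested. Between PAAD and COAD, 5 of 8 carriers responded differently, against 3.44% of all genes, and all 5 had the higher fold change in PAAD: SLC1A4 by 1.09 ± 0.134, SLC6A9 by 0.86 ± 0.103, SLC7A5 by 0.78 ± 0.0955, SLC7A1 by 0.43 ± 0.0684 and SLC1A5 by 0.41 ± 0.0652. The adjusted p-values of these 5 lay between 2.25e-06 and 0.000267. Without 1 replicate number the genes called in each pair also moved widely, from 848 to 46 (without 2) or 1341 (without 3) in this pair, and over the 6 pairs they lay between 24 and 148 without 2 and between 274 and 2354 without 3. SLC7A1 did not pass in that pair when replicate 2 of every group was left out (0.0885). Between COAD and TNBC, which received the same dilution, 3 carriers differed (6.78% of all genes): SLC7A1 by 0.45 ± 0.0681 (adjusted p = 5.85e-05, edgeR), SLC7A5 by 0.36 ± 0.095 (0.0208) and SLC1A4 by 0.36 ± 0.108 (0.0361), each higher in TNBC. Without replicate 2 only SLC7A1 still passed (SLC7A5 0.0684, SLC1A4 0.391), without replicate 1 SLC1A4 did not pass (0.198), and without replicate 3 SLC7A5 did not (0.227).

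PAAD and TNBC differed in 4 carriers (4.01% of all genes), each with the higher fold change in PAAD: SLC6A9 by 0.73 ± 0.0849 (adjusted p = 6.24e-07), SLC1A4 by 0.73 ± 0.126 (0.000396), SLC7A5 by 0.42 ± 0.0953 (0.0106) and SLC1A5 by 0.35 ± 0.0653 (0.000973). Without replicate 2, SLC7A5 (0.105) and SLC1A5 (0.118) did not pass, and without replicate 3 SLC7A5 did not (0.0765). PRAD and COAD differed in 3 (0.832% of all genes), higher in PRAD: SLC7A5 by 0.77 ± 0.115 (adjusted p = 0.000446), SLC6A9 by 0.77 ± 0.107 (4.16e-05) and SLC1A4 by 0.47 ± 0.114 (0.0401). Here SLC1A4 did not pass without replicate 1 (0.364) or 2 (0.788), and SLC7A5 did not without replicate 3 (0.0581). PRAD and TNBC differed in SLC6A9 by 0.64 ± 0.09 (2.43e-05) and in SLC7A5 by 0.41 ± 0.115 (0.0436), higher in PRAD (3.59% of all genes), and the SLC7A5 difference did not pass without replicate 1 (0.419), 2 (0.0919) or 3 (0.12). With the replicate number as a block, SLC7A1 differed too, with the higher fold change in TNBC (adjusted p = 0.012). PAAD and PRAD differed in SLC1A4 by 0.63 ± 0.132 (0.00381) and in SLC1A5 by 0.34 ± 0.07 (0.00286), higher in PAAD (3.29% of all genes). Without replicate 2 neither passed (0.0761 and 0.272), and without replicate 3 SLC1A4 did not (0.0641). With the block SLC7A1 differed in that pair as well, higher in PAAD (0.0315).

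Several pairs gave no call. The response of SLC7A5 in PAAD and PRAD differed by 0.00 (95% interval -0.24 to 0.25) and that of SLC6A9 by 0.09 (-0.10 to 0.28), so that smaller differences than these limits could not be seen. SLC6A9 rose in TNBC and not in COAD, but both responses differed by only 0.13 (interval of COAD minus TNBC from -0.33 to 0.07). SLC43A1 was not called in any pair without the replicate block (2 pairs with COAD passed with it), with intervals as wide as -0.995 to -0.189 for COAD minus PAAD (adjusted p = 0.0929). For SLC38A2 all 6 intervals lay between -0.17 and 0.14.

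**Figure D4:**
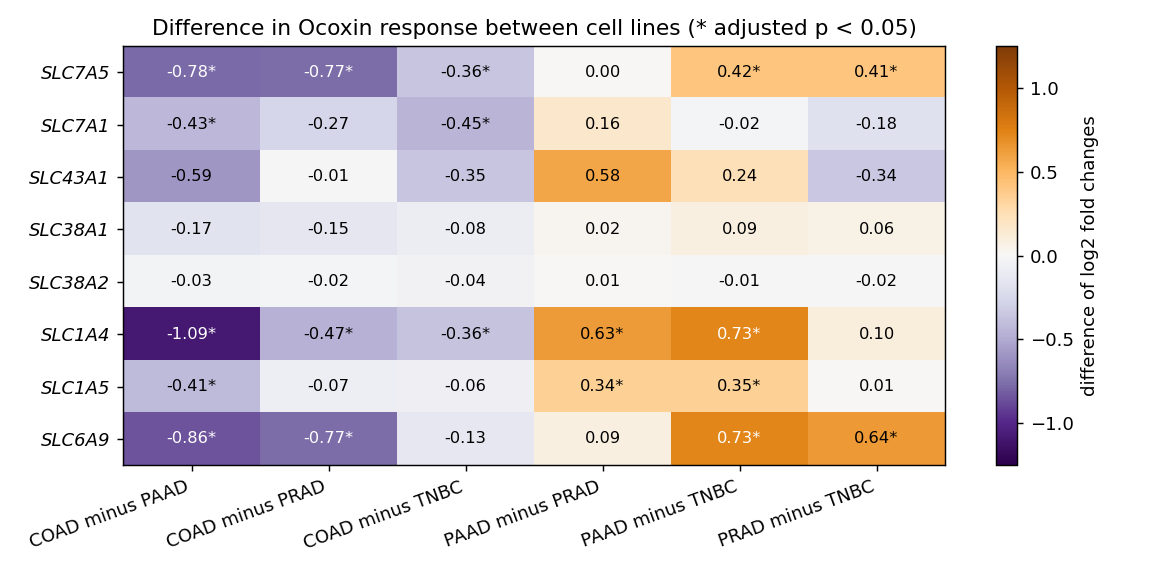
Difference between 2 cell lines in the log2 fold change of Ocoxin over control, for the 8 carriers (rows) and the 6 pairs of lines (columns), with a star for an adjusted p under 0.05 (edgeR, 24 libraries). The largest difference is SLC1A4 in COAD minus PAAD, at -1.09, and the row of SLC38A2 has no star, with values from -0.04 to 0.01.

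The 8 carriers moved together to different degrees. Over the 24 libraries, with log2 levels centred on the mean of each cell line, SLC7A5 followed SLC6A9 (Pearson r = 0.947) and SLC1A4 (0.882), and SLC1A4 followed SLC6A9 (0.896). SLC38A2 stood apart, with r = -0.02 to SLC1A5 and 0.165 to SLC7A5, and its nearest carrier was SLC38A1 (0.601). These values include the response to Ocoxin and share libraries, and they describe the data only. Among 8068 other genes with at least 10 CPM in each line, those whose centred levels were most like the mean of the 8 carriers included AARS1 (r = 0.918), the alanyl-tRNA synthetase; MBP (0.913), the gene of myelin basic protein; SLC3A2 (0.906), the heavy chain that SLC7A5 needs; and PCK2 (0.897), the mitochondrial phosphoenolpyruvate carboxykinase. These 4 rose in PAAD (0.31 to 0.49) and did not pass in COAD, while AARS1 and PCK2 also rose in TNBC and PCK2 in PRAD.

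SLC3A2 read 241 ± 14.7 CPM in PAAD controls and 331 ± 14.6 CPM with Ocoxin, and rose by 0.46 ± 0.0589 (adjusted p = 0.000167). In PRAD it stood at 159 ± 13.9 and 193 ± 17.1 CPM (0.28 ± 0.08, adjusted p = 0.107, or 0.03 with the replicate block and 0.0382 with length and GC trends removed), and in TNBC at 355 ± 32.1 and 399 ± 4.51 CPM (0.17 ± 0.0557, adjusted p = 0.055, or 0.000305 with the block, 0.0192 with DESeq2 and 0.0249 without control 2). The treated libraries lay above the controls in these 3 lines, and in COAD they overlapped (0.08 ± 0.0463, adjusted p = 0.457).

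Of 44 other amino acid carriers, between 22 and 26 had enough counts to be tested in a line. In COAD 0 of 26 passed, with a median of 0.07. In PAAD 6 of 23 rose and 2 fell (median 0.10), in PRAD 2 of 23 rose and 0 fell (0.12), and in TNBC 3 of 22 rose and 4 fell (-0.04). Over all genes of these 3 lines, 4.72%, 2.4% and 9.65% were called higher and 8.33%, 2.98% and 21% in either direction. With the replicate block 4 rose in PRAD, where the block called 5.81% of all genes higher. SLC7A11, the cystine importer that also pairs with SLC3A2, rose in PAAD (0.60 ± 0.0654, adjusted p = 3.35e-05), PRAD (0.75 ± 0.116, 0.025) and TNBC (0.70 ± 0.0654, 2.87e-05), and its PRAD call did not pass without control 2 (0.0826), Ocoxin 1 (0.0732) or Ocoxin 2 (0.106). SLC1A1, a glutamate and cysteine carrier, rose in PAAD (0.58, adjusted p = 0.0203) and fell by 0.36 in TNBC (0.0457), where its groups overlapped. It did not pass in PAAD without control 2 (0.0925), Ocoxin 1 (0.062) or Ocoxin 2 (0.0564), nor in TNBC without control 1 (0.193), control 2 (0.159), Ocoxin 1 (0.0636), Ocoxin 2 (0.108) or Ocoxin 3 (0.0933). SLC6A14, a broad carrier of neutral and cationic amino acids, fell by 0.28 in PAAD (0.016) and by 0.54 in TNBC (0.000198), and its PAAD call did not pass without control 2 (0.0597), Ocoxin 1 (0.0744) or Ocoxin 2 (0.105).

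Among the remaining carriers, SLC1A3, a glutamate carrier, fell by 0.38 in PAAD (adjusted p = 0.000507, edgeR), and SLC7A7, the light chain of a leucine and arginine exchanger, rose by 0.72 in TNBC (0.00348), where SLC38A7, a glutamine carrier, also rose (0.33, adjusted p = 0.00168). SLC38A7 rose in PAAD too (0.25, adjusted p = 0.0235), which did not pass without control 1 (0.0535), control 2 (0.102), Ocoxin 1 (0.0651) or Ocoxin 2 (0.128). In PRAD the proline carrier SLC6A20 rose by 1.71 (adjusted p = 0.0312) on 15, 10 and 8 counts in the controls and 47, 29 and 33 with Ocoxin, and it passed in none of the fits that left out 1 library (0.0506 to 0.112). In TNBC SLC1A6 fell from 32, 28 and 25 counts to 10, 2 and 3 (adjusted p = 0.00369), so that its fold change of -2.46 rests on very few reads.

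Of the genes through which mTORC1 senses amino acids, 36 were tested in COAD and 37 in each other line. In COAD 1 rose and 0 fell, 5 rose and 2 fell in PAAD, 0 rose and 1 fell in PRAD, and 7 rose and 4 fell in TNBC. These counts stand against 2.55%, 8.33%, 2.98% and 21% of all genes. Those of COAD and PRAD are at that background, that of PAAD is above it, and that of TNBC is not far above it. The count of PAAD depended on single libraries: without Ocoxin 1 or without Ocoxin 2, 1 rose and 0 fell. The medians in this order were -0.02, -0.01, -0.03 and 0.03. With the replicate block, 8 rose and 4 fell in PAAD, 1 rose and 1 fell in PRAD, and 10 rose and 5 fell in TNBC. Under the block, 23.1%, 8.5% and 33.9% of all genes were called in these lines. With trends of length and GC content removed 1 rose and 4 fell in PRAD, where that fit called 2516 of 17070 genes, 27.2% of them higher, so that the falls are near the background. SESN2, a leucine sensor that restrains mTORC1 and is itself a stress-induced gene, rose in COAD (0.87 ± 0.126, adjusted p = 0.000489), PAAD (0.41 ± 0.0836, 0.00652) and TNBC (0.49 ± 0.0527, 6.64e-05). In PRAD its change of 0.39 ± 0.0962 had an adjusted p of 0.0764 (edgeR). It passed there with the block (0.032), with DESeq2 (0.0128) and with length and GC trends removed (0.0251). Of the PRAD fits without 1 library, only that without Ocoxin 3 called SESN2 (0.038). TSC2, a brake on mTORC1, rose in TNBC (0.40, adjusted p = 0.000666) and PAAD (0.29, adjusted p = 0.0124), as did FLCN in PAAD (0.34, adjusted p = 0.0229). LAMTOR5, part of the lysosomal anchor of mTORC1, fell by 0.29 in TNBC (0.000816) and by 0.26 in PAAD (0.0117), SESN3 fell by 0.27 in PAAD (0.0372) but rose in TNBC (0.25, adjusted p = 0.0263), and RRAGA, a Rag GTPase, fell by 0.30 in TNBC (0.000362), where SEC13 fell by 0.19 (0.0143). FNIP2 fell by 0.33 in PRAD (0.0195). FLCN also rose in TNBC (0.31, adjusted p = 0.018), a call lost without control 2 (0.0857), control 3 (0.0548) or Ocoxin 1 (0.0746), and that of SESN3 there was lost without control 1 (0.0878), control 2 (0.11), Ocoxin 2 (0.0833) or Ocoxin 3 (0.053). In PAAD, TSC2 (0.073 and 0.09) and LAMTOR5 (0.0558 and 0.0622) did not pass without Ocoxin 1 or Ocoxin 2, FLCN did not without control 1 (0.0726) or these libraries (0.0898 and 0.138), and SESN3 did not without control 2 (0.0549), control 3 (0.087) or these libraries (0.134 and 0.172). SEC13 did not pass in TNBC without control 2 (0.0664), Ocoxin 1 (0.0681) or Ocoxin 2 (0.0607), nor FNIP2 in PRAD without control 2 (0.0826), control 3 (0.0567) or Ocoxin 2 (0.0893).

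ATF4 is controlled mainly at the level of translation. Its mRNA was called in no line by the edgeR fit of all 6 libraries without block or trend removal. It stood at 404 ± 15.4 and 406 ± 9.34 CPM in COAD, 413 ± 23.9 and 472 ± 24.4 in PAAD, 120 ± 3.34 and 125 ± 1.43 in PRAD and 564 ± 14.1 and 546 ± 10.4 in TNBC. In PAAD its change was 0.19 ± 0.0585 (adjusted p = 0.0527, or 4.26e-05 with the block, 0.0224 with DESeq2 and 0.00851 with length and GC trends removed). It passed there without control 1 (0.027) or Ocoxin 3 (0.0238), and not without any other library (0.0992 to 0.222). MYC rose in PAAD (0.32 ± 0.0684, adjusted p = 0.00816) and TNBC (0.29 ± 0.0452, 0.000922), and not in PRAD (-0.02 ± 0.0841, 0.908) or COAD (0.06 ± 0.0464, 0.586). Without Ocoxin 1 (0.0529) or Ocoxin 2 (0.0564) the PAAD call of MYC did not pass. Of the 10 known regulators, 1 rose in COAD and 2 in PAAD, PRAD had 3 and TNBC 4, and 0 fell, against 1.47%, 4.72%, 2.4% and 9.65% of all genes called higher. With the block 4 rose in PAAD (12.1% of all genes), and with length and GC trends removed 2 fell in PRAD, in the fit that called 2516 genes. DDIT3, a stress-induced partner of C/EBP factors, rose in PRAD (0.74, adjusted p = 0.0327) and TNBC (0.45, adjusted p = 0.0019). CEBPB rose in COAD (0.52, adjusted p = 0.0248), PAAD (0.32, adjusted p = 0.0127) and PRAD (0.71, adjusted p = 0.0315), CEBPG in PRAD (0.39, adjusted p = 0.0158) and TNBC (0.18, adjusted p = 0.0183, or 0.071 without control 2), and EIF2AK4, the kinase that senses uncharged tRNA, in TNBC (0.34, adjusted p = 0.00155). CEBPB did not pass in COAD without control 1 (0.138) or Ocoxin 2 (0.182), in PAAD without Ocoxin 1 (0.0807) or Ocoxin 2 (0.0773), or in PRAD without any 1 library (0.056 to 0.102). CEBPG in PRAD was lost without control 2 (0.0801), control 3 (0.0531) or Ocoxin 2 (0.069), and DDIT3 in PRAD held only without Ocoxin 3 (0.0631 to 0.122 in the other fits).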

How the data were processed

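RNA of 24 libraries was used, 3 control and 3 Ocoxin libraries in each of 4 cell lines, grouped by the letters in their titles, since the labels attach the dilution to controls too. Before deposit, the authors used fastp for trimming, STAR and hg38 for alignment, picard to take out duplicates and featureCounts 2.0.3 for exonic reads, and the deposited values are whole counts per gene without normalization. Without the strand, overlapping genes are uncertain, and reads that touched exons of more than 1 gene were not counted. The methods name DESeq2 for the study's own tests.

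The counts were analysed in R 4.3.3. After filterByExpr and TMM scaling, the 6 libraries of a line were fitted by themselves (robust quasi-likelihood F-test, edgeR 4.0.16, two-sided), with Benjamini-Hochberg adjustment over all genes (adjusted p under 0.05). Differences in response used all 24 libraries, and control levels the 9 controls of COAD, PAAD and TNBC. Libraries held between 9063968 and 39009959 counts, and the biological coefficient of variation was 6.28 to 6.84%. The scripts were tested on simulated counts. Alternatives were DESeq2 1.42.0, other scalings and filters, length and GC trends (splines with 5 degrees of freedom), a replicate block and libraries left out. For PRAD, counts corrected for reads with the same start were also used, and 551 genes were called. Removal of the GC trend, and of the length trend together with the block, was added after seeing the data.

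Same-numbered control and treated libraries deviated together in PAAD (r = 0.319 to 0.621), PRAD (0.177 to 0.604) and TNBC (0.289 to 0.633). The numbers were taken to pair these libraries from the data and not from the labels, and this rests mainly on replicate 3. Replicates 1 and 2 were poorly told apart: in TNBC control 2 was closer to Ocoxin 1 (0.349) than to Ocoxin 2 (0.323). In PRAD control 2 read 0.137 to Ocoxin 1 and 0.177 to Ocoxin 2. In COAD 1 of the 3 pairs was at 0.087, with control 2 closer to Ocoxin 1 (0.417), and the libraries of COAD were not taken as paired. This split between COAD and the other lines was drawn from the data and is not sharp. All 8 carriers are named throughout. Of the other lists, genes called with the largest change are named, up to 3 per list, line and direction, with SLC3A2, ATF4 and MYC always, and 37 of the 38 mTORC1 symbols matched. The members and lists were chosen with earlier results of these data known. A few genes that these rules would name are not reported here. Promoters came from RefSeq.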

Additional observations from a re-analysis of the deposited data

Results flagged for a closer look

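Each of the 8 carriers was tested in each of the 6 pairs of cell lines. The response of a carrier differed between 2 cell lines, by the test of the difference itself, in 19 cases, given here as differences of log2 fold changes. Of all genes, between 0.832% (COAD minus PRAD) and 6.78% (COAD minus TNBC) were called in a pair. The carriers were chosen with earlier results known, so this count is no test of the set. COAD minus PAAD gave -0.78 for SLC7A5, -0.43 for SLC7A1, -1.09 for SLC1A4, -0.41 for SLC1A5 and -0.86 for SLC6A9. COAD minus PRAD gave -0.77 for SLC7A5, -0.47 for SLC1A4 and -0.77 for SLC6A9, and COAD minus TNBC gave -0.36 for SLC7A5, -0.45 for SLC7A1 and -0.36 for SLC1A4. PAAD minus PRAD gave 0.63 for SLC1A4 and 0.34 for SLC1A5. PAAD minus TNBC gave 0.42 for SLC7A5, 0.73 for SLC1A4, 0.35 for SLC1A5 and 0.73 for SLC6A9, and PRAD minus TNBC gave 0.41 for SLC7A5 and 0.64 for SLC6A9. SLC38A1, SLC38A2 and SLC43A1 gave no such difference in the 24-library fit without a block. The 19 cases were not equally firm when the fit was altered or a replicate number was left out. SLC7A5 in PRAD minus TNBC and SLC1A4 in COAD minus PRAD each passed in 2 of 5 such settings. Others held throughout, such as SLC6A9 in PAAD minus TNBC (6 of 6).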

How the results depend on the processing

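In PAAD and TNBC, 5 carriers or more were called with DESeq2, other scalings and filters, length and GC trends removed and the replicate block, and 4 in each with an adjusted p under 0.01. In COAD the count of 1 went to 0 with at least 10 counts in every library, with an adjusted p under 0.01 and with counts halved, and was 0 to 1 with a library left out. In PRAD the count of 3 went to 0 with an adjusted p under 0.01 and was 0 (without Ocoxin 2) to 2 with a library left out. For differences, the counts without 1 replicate number were 1 to 2 for COAD and TNBC, 0 to 2 for PAAD and PRAD, 2 to 4 for PAAD and TNBC, and 1 for PRAD and TNBC. With DESeq2 size factors SLC1A4 in COAD minus PRAD did not pass (0.0503).

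Signs turned for values that were not called. With the length trend removed, SLC38A2 was at -0.0032 in PAAD (with the block too) and at -0.0286 in PRAD, SLC1A5 at -0.0152 in PRAD and SLC38A1 at -0.0278 in TNBC. With the GC trend removed too, the latter 3 were -0.0184, -0.024 and -0.0288, and with length trend and replicate block -0.0281, -0.0146 and -0.0284. DESeq2 size factors turned the differences of SLC38A2 (COAD minus PAAD 0.0016, PAAD minus PRAD -0.0073), SLC43A1 (COAD minus PRAD 0.005) and SLC7A5 (PAAD minus PRAD -0.0114), and the block turned the last one (-3e-04). With a library left out, responses ranged from -0.0436 to 0.0338 (SLC38A2), -0.0041 to 0.1061 (SLC1A4) and -0.0423 to 0.0047 (SLC1A5) in COAD, -0.0034 to 0.0458 (SLC38A2) in PAAD and -0.0148 to 0.0588 (SLC38A1) in TNBC. Without 1 replicate number, SLC1A5 ranged from -0.1591 to 0.0014 in COAD minus PRAD, -0.1185 to 0.001 in COAD minus TNBC and -0.0087 to 0.0406 in PRAD minus TNBC. SLC38A2 ranged from -0.0027 to 0.0135 in PAAD minus PRAD, -0.0377 to 0.0389 in PAAD minus TNBC and -0.0478 to 0.0253 in PRAD minus TNBC. SLC7A5 (-0.0812 to 0.1522) and SLC38A1 (-0.0509 to 0.081) turned in PAAD minus PRAD, SLC43A1 (-0.0317 to 0.0309) in COAD minus PRAD and SLC7A1 (-0.0475 to 0.0341) in PAAD minus TNBC. The causes were not tested.

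In COAD 57.4% of all calls were higher, and 46.9% with the length trend and 37.2% with length and GC trends removed. The genes called rose from 451 to 1925 in COAD, 1440 to 3998 in PAAD, 508 to 1451 in PRAD and 3644 to 5878 in TNBC with the replicate block, and PRAD had 1717 with the length trend removed and 3 without Ocoxin 2. In COAD, whose libraries were not taken as paired, the block called 1 carrier, 4 other carriers higher and 3 lower, and 2 mTORC1 genes higher and 3 lower. It also called differences of SLC38A1 (0.0108) and SLC43A1 (0.0446) in COAD minus PAAD, SLC7A1 (0.000969) in COAD minus PRAD and SLC43A1 (0.0341) in COAD minus TNBC. It changed no carrier's call beside these and those given with the results. PRAD libraries held the fewest counts (from 9063968), which limits the precision of low carriers there.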
